A study of Homo sapiens with 60 samples.

Results

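The comparison set A549 cells given a high dose of Soyo-san against the same cells given lower doses of it. Members were chosen by title: 2 high dose libraries at 500 µg/mL against 4 lower dose libraries, 2 at the medium dose of 100 µg/mL and 2 at the low dose of 20 µg/mL, making 6 of the 60 libraries in the series. Every library came from A549, an established human lung adenocarcinoma line, and all 6 cultures received a 70% ethanol extract of Soyo-san for 24 h. The reference is therefore the same extract diluted, and no vehicle library entered the comparison. Soyo-san is a multi-herb formula of East Asian medicine that includes mint herb. The series profiled formulas and single herbs by mRNA sequencing. Ethanol extracts of Menthae Herba (mint herb) and of Guibi-tang, another multi-herb formula, were given to A549 cells at the same doses for the same time, with 9 libraries each, and are used below to show where Soyo-san differed.

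Plant extracts carry flavonoids and related compounds, many of which bind the aryl hydrocarbon receptor (AHR), a ligand-activated transcription factor. With its partner ARNT it binds the core motif GCGTG and raises CYP1A1, CYP1B1, TIPARP and AHRR, of which the last 2 products feed back on the receptor. A second sensor system, the integrated stress response, runs through phosphorylation of the translation factor eIF2alpha and the transcription factor ATF4. ATF4 and its partners bind composite elements of the form TGATGNAA and raise genes of amino acid synthesis, amino acid import and tRNA charging.

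Total counts ran between 18863988 and 29531896 in the 6 libraries, within the range of 17113963 to 33363661 of the series. Each of 12 A549 markers exceeded 1 CPM (counts scaled to library size with edgeR's TMM factors), with summed levels of 24070 to 26710 CPM at the high dose against 25430 to 28110 CPM at the lower doses. CDKN2A and CDKN2B, which A549 has lost, summed to at most 0.0767 CPM at the high dose against at most 0.135 CPM at the lower doses. Of markers of other cells, 0 of 5 endothelial, 0 of 4 erythrocyte, 3 of 7 leukocyte, 3 of 7 fibroblast and 1 of 10 alveolar type 2 genes exceeded 1 CPM, and CD3E, COL1A2, HBB, SFTPA1 and SFTPA2 were at 0. Both high dose libraries differed more from each other than replicates of the other doses did, with an SD of the log2 difference between replicates of 0.44 at the high dose, against 0.35 at the medium and 0.38 at the low dose. A chi-square between replicates, per gene, was 27.6 at the high dose, against 5.09 at the medium and 7.86 at the low dose. The comparison rests on these 2 high dose libraries. Mitochondrially encoded mRNAs took 13.3% and 8.5% of counts in high dose replicates 1 and 2, against 7.91% to 10.0% in the lower dose libraries. The labels do not say that replicates were separate cultures, so each p-value reflects only how much these libraries vary, which may be technical.

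At the high dose, 4 AHR targets and 10 genes of the integrated stress response were higher than at the lower doses, along with the autophagy receptor gene SQSTM1 and the sialidase gene NEU1. The nuclear receptor genes NR4A1 and NR4A3, PTGS2, MUC16, the 3 fibrinogen chain genes, 4 matrix genes and 3 YAP and TEAD genes were lower. Of 16197 genes tested, 955 (5.9%) passed an adjusted p of 0.05 in edgeR's quasi-likelihood test with Benjamini-Hochberg adjustment, the rule behind every call and adjusted p given here. Among them 261 (1.61%) rose and 694 (4.28%) fell. Changes were mostly small: 22 genes (0.136%) rose and 19 (0.117%) fell by at least 2-fold. In 949 of the 955 called genes both high dose libraries lay beyond all 4 lower dose libraries in the direction of the change, while over all genes tested both lay above in 14.2% and below in 16.7%. The calls come from the same 6 libraries, so this separation, here and in single genes below, adds no support to them.

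The count depended on single libraries. Leaving out high dose replicate 1 or 2 gave 130 or 531. Leaving out medium dose replicate 1 or 2 gave 570 or 342, and leaving out low dose replicate 1 or 2 gave 1785 or 226. Without high dose replicate 2 the split turned to 296 higher and 235 lower (55.7% higher), and without the filter on low counts it was 948 and 1046. In the other fits with 1 library left out 26.5% to 35.4% were higher. The genes that fell were long and AT-rich, with a median longest transcript of 6483 bases and 41.3% GC, against 2286 bases and 53.7% in genes that rose and 3302 bases and 48.8% in all genes tested. With trends in GC content and length removed from each library, 851 genes passed, of which 359 rose and 492 fell. Only 519 of these 851 genes were also called without that correction, so the similar totals hide many calls lost and gained. The share of the 851 that rose was 42.2%, against 27.3% of the calls without that correction.

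**Figure D1:**
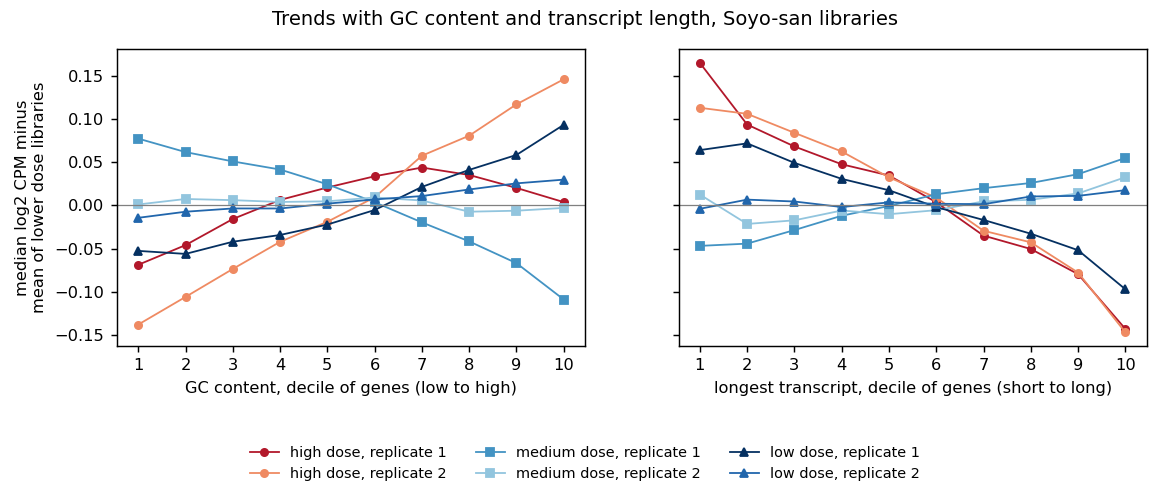
Median log2 CPM of each Soyo-san library minus the mean of the 4 lower dose libraries, over genes in deciles of GC content (left) and of longest transcript length (right). In the longest decile both high dose libraries sit at -0.14 and -0.15 and low dose replicate 1 at -0.10, while medium dose replicate 1 lies at 0.05.

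The trend with length was alike in both high dose libraries, and the trend with GC content was not. In the decile of genes with the longest transcripts the median log2 difference from the mean of the lower dose libraries was -0.14 and -0.15 in high dose replicates 1 and 2. The lower dose libraries ranged there between -0.10 in low dose replicate 1 and 0.05 in medium dose replicate 1. In the most GC-rich decile the high dose values were 0.004 and 0.15, against -0.11 to 0.09 at the lower doses. For some single genes the value after removal of these trends is given below. Of the 75 genes named by the rule for high over lower doses, 19 missed the threshold after this removal. Among those are SLC43A1, KLF9, SGK1, SMG1P1 and RPL18AP3, which are given below without that value.

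Of 6 AHR targets tested, 4 rose and none fell, and the median log2 fold change of the list was 0.69, against 0.01 for all genes tested. The number that rose was 2 when high dose replicate 1, high dose replicate 2 or low dose replicate 2 was left out, with medians of 0.61 to 0.74. AHR itself, the receptor gene, fell: it had 32.4 and 33.1 CPM at the high dose, against 49.9 and 45.6 CPM at the medium and 48.7 and 49.1 CPM at the low dose (-0.56 ± 0.06, adjusted p = 0.00286). Its groups did not overlap, and it was named after its values were seen. The promoters of CYP1A1 and TIPARP are shown because these genes held their calls under every setting that gave a value and carry the core motif. They run from 250 bases before to 50 bases after the annotated start, in RefSeq GRCh38.p14, at chr15:74725479-74725778 on the minus strand and chr3:156674340-156674639 on the plus strand. Capitals mark GCGTG or its reverse complement CACGC.
CYP1A1: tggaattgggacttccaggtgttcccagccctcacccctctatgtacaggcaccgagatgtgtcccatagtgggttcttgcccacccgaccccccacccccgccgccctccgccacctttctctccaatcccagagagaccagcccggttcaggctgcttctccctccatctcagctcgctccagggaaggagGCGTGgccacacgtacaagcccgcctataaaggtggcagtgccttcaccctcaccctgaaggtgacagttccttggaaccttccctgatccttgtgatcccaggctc
TIPARP: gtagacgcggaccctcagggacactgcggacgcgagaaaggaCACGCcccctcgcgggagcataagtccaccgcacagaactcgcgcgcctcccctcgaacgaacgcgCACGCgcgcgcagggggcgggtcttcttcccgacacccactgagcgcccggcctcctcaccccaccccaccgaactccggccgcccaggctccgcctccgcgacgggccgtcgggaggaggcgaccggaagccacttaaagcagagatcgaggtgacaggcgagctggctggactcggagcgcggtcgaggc
Of the 4 AHR targets that rose, 3 had an entry in the promoter table, and all 3 (CYP1A1, TIPARP and AHRR) held GCGTG on either strand in at least 1 listed promoter. The motif is common, present in 36.5% of 35116 promoters of the same length, and a match is not a binding site. That share counts promoters, whereas a gene was counted if any of its listed promoters matched. TIPARP had 3 listed promoters and the motif in 1, the one shown. CYP1B1 is named only.

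CYP1A1 (chromosome 15, 74719542 to 74725610, minus strand, GRCh38) encodes the cytochrome P450 that serves as the classic readout of AHR. Its level was 5.74 and 8.12 CPM at the high dose, against 1.90 and 2.20 CPM at the medium dose and 1.16 and 1.14 CPM at the low dose. The groups did not overlap, and the log2 fold change of high over lower doses was 2.07 ± 0.24 (SE, adjusted p = 0.00293). CYP1B1, which encodes a related enzyme that also oxidises estradiol, had 154 and 161 CPM at the high dose, against 118 and 112 CPM at the medium and 78.7 and 79.4 CPM at the low dose. Its groups did not overlap either, and it rose by 0.69 ± 0.14 on the log2 scale (adjusted p = 0.0212). TIPARP, an ADP-ribosyltransferase that restrains the receptor, had 54.2 and 58.1 CPM at the high dose, against 40.2 and 40.1 CPM at the medium and 29.2 and 28.8 CPM at the low dose. AHRR, the repressor that competes with AHR for its partner, had 7.79 and 8.80 CPM at the high dose, against 5.57 and 6.09 CPM at the medium and 3.94 and 3.48 CPM at the low dose. In both genes the groups were again separate, with log2 fold changes of 0.69 ± 0.13 (adjusted p = 0.0142) and 0.78 ± 0.19 (adjusted p = 0.0407). NQO1 and ALDH3A1, which answer to both AHR and NRF2, did not pass, at 0.13 (adjusted p = 0.16) and 0.18 (adjusted p = 0.24).

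**Figure D2:**
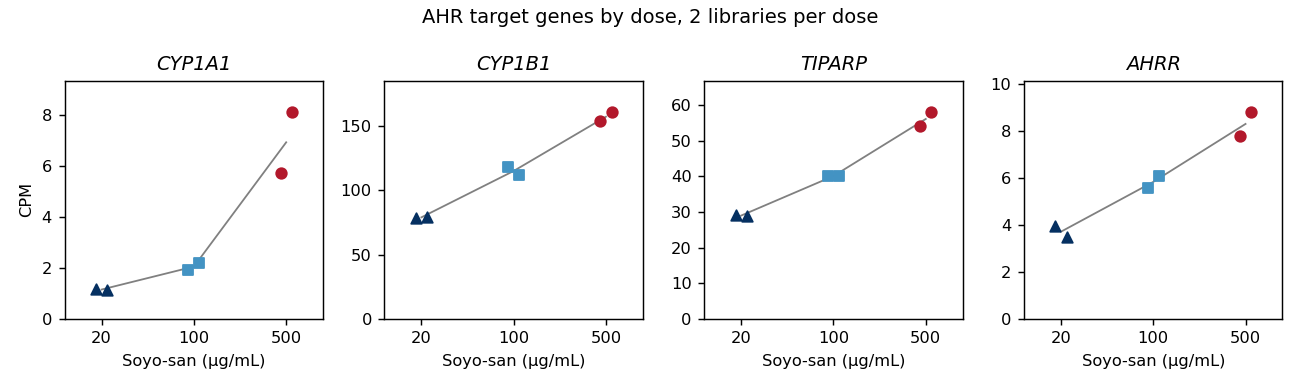
CPM of 4 AHR target genes in each Soyo-san library against dose in µg/mL, on linear axes from 0, with a line through the dose means. In each gene the order is low, medium, high with no overlap between doses, and CYP1A1 goes up to 8.12 CPM at 500 µg/mL.

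The medium dose lay between the other doses for these genes. In the fit with a mean per dose, CYP1B1 was higher at the medium than at the low dose by 0.54 ± 0.06 on the log2 scale (adjusted p = 0.0156). The same contrast was 0.83 ± 0.26 for CYP1A1 (adjusted p = 0.65), 0.47 ± 0.07 for TIPARP (adjusted p = 0.168) and 0.65 ± 0.15 for AHRR (adjusted p = 0.65), none past the threshold. Between the 2 lower doses 4 genes (0.0247%) passed, 2 higher (0.0123%) and 2 lower (0.0123%) at the medium dose. By DESeq2 19 passed, all lower and none of them among the 4, and its filter left CYP1B1 without an adjusted p. In edgeR 1210 genes had an unadjusted p under 0.05, and CYP1B1 missed the threshold when any 1 medium or low dose library was left out (adjusted p of 0.136 to 0.335). Without medium dose replicate 2 the count was 0, and without high dose replicate 2 it was 13. Besides CYP1B1 they were CDRT4, the readthrough gene TVP23C-CDRT4 and ENSG00000277991. CDRT4 had 11.2 and 10.3 CPM at the high dose, against 3.50 and 3.89 CPM at the medium and 8.51 and 9.40 CPM at the low dose, and TVP23C-CDRT4 had 1.04 and 1.19 CPM at the high dose, against 7.00 and 7.82 CPM at the medium and 1.10 and 1.34 CPM at the low dose. These 2 share exons, so the counting can divide reads between them and their separate levels are uncertain. High over medium gave 1336 genes (8.25%), 400 up (2.47%) and 936 down (5.78%), and high over low gave 328 (2.03%), 88 up (0.543%) and 240 down (1.48%). The first count was 1 without medium dose replicate 1, and the second was 7 without low dose replicate 2.

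Of 23 tested genes of the integrated stress response, 10 rose and 1 fell, with a median log2 fold change of 0.29. The median over members of the log2 CPM minus the mean of the lower dose libraries, here called the list level, was 0.30 and 0.25 in the high dose libraries, against -0.02 to 0.04 in the lower dose libraries, with no overlap. The count of members that rose was 7 to 13 when any 1 library was left out and 11 after removal of the GC and length trends. TRIB3, a pseudokinase induced downstream of ATF4, had 108 and 104 CPM at the high dose, against 72.6 and 71.2 CPM at the medium and 70.1 and 70.7 CPM at the low dose. It rose by 0.57 ± 0.05 (adjusted p = 0.00122) with no overlap, and its lower doses were level with each other (medium over low 0.03 ± 0.06, adjusted p = 0.9). ASNS (chromosome 7, 97852118 to 97872542, minus strand), the asparagine synthetase, had 142 and 140 CPM at the high dose, against 102 and 96.5 CPM at the medium and 91.4 and 89.4 CPM at the low dose. PHGDH, the first enzyme of serine synthesis, had 101 and 104 CPM at the high dose, against 70.7 and 71.6 CPM at the medium and 74.2 and 69.8 CPM at the low dose. Both were separate from the lower doses, by 0.57 ± 0.06 (adjusted p = 0.00286) and 0.52 ± 0.05 (adjusted p = 0.00247). 

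The secreted products STC2 and GDF15 rose as well. STC2, a glycoprotein of the stress response, had 29.6 and 31.0 CPM at the high dose, against 18.3 and 21.1 CPM at the medium and 17.6 and 19.9 CPM at the low dose (0.65 ± 0.08, adjusted p = 0.00318). GDF15, a stress cytokine that p53 also induces, had 31.3 and 31.5 CPM at the high dose, against 17.8 and 17.9 CPM at the medium and 22.3 and 20.4 CPM at the low dose (0.69 ± 0.09, adjusted p = 0.00359). Neither overlapped between groups. DDIT3, which encodes the transcription factor CHOP, reached 12.0 and 11.7 CPM at the high dose, against 7.46 to 8.17 CPM at the lower doses, which was 0.59 ± 0.09 on the log2 scale (adjusted p = 0.00604). The other members that rose were NUPR1 (0.59), DDIT4 (0.36), PSAT1 (0.31) and ATF4 itself (0.23). The member that fell was the cystine transporter gene SLC7A11, with 289 and 295 CPM at the high dose against 328 to 387 CPM at the lower doses, a change of -0.30 ± 0.07 (adjusted p = 0.0313) that was -0.06 (adjusted p = 0.49) after removal of the GC and length trends. CHAC1, a glutathione-degrading enzyme, missed the threshold at 0.54 ± 0.14 (adjusted p = 0.051), and ATF3 was at 0.12 (adjusted p = 0.57).

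**Figure D3:**
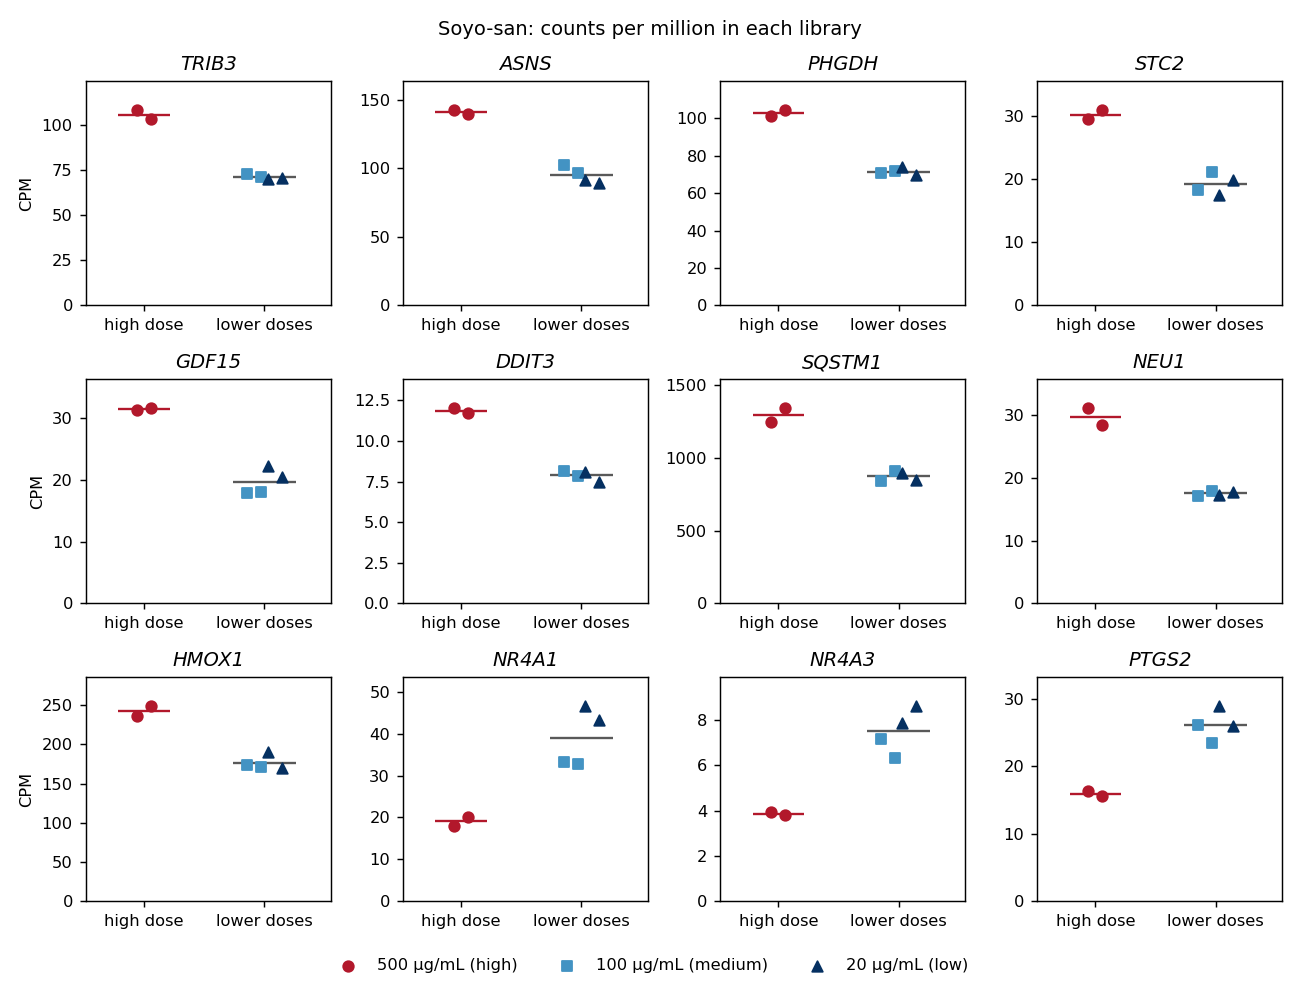
CPM of 12 genes in each Soyo-san library, on linear axes from 0, with the high dose on the left and the lower doses on the right and bars at the group means. The high dose libraries lie above the lower dose ones in 9 genes (TRIB3 at 104 and 108 CPM) and below them in NR4A1, NR4A3 and PTGS2.

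Among 13 aminoacyl-tRNA synthetase genes, whose products charge tRNAs with amino acids, 3 rose, with a list median of 0.12. Only 1 member rose when any library but low dose replicate 1 was left out, and in the fit of 54 libraries. AARS1 had 373 and 384 CPM at the high dose, against 292 to 306 CPM at the lower doses (0.34 ± 0.05, adjusted p = 0.00582). MARS1 and YARS1 rose by 0.21 ± 0.05 (adjusted p = 0.0409) and 0.20 ± 0.05 (adjusted p = 0.0458), and both missed the threshold after removal of the GC and length trends (adjusted p of 0.0575 and 0.113). The promoters of ASNS at chr7:97872359-97872658 and AARS1 at chr16:70289457-70289756, both on the minus strand of RefSeq GRCh38.p14, are given because each held an ATF4-type element. Capitals mark TGATGNAA or its reverse complement.
ASNS: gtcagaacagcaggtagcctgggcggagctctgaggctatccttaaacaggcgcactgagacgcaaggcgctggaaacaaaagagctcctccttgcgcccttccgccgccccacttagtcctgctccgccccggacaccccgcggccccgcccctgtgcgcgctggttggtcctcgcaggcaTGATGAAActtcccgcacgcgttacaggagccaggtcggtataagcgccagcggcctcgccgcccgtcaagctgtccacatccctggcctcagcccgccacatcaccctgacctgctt
AARS1: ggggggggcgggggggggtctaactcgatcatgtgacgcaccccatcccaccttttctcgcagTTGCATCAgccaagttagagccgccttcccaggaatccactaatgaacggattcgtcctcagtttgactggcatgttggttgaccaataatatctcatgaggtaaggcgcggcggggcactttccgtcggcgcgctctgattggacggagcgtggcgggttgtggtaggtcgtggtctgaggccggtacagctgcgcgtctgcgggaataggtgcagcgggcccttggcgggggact
Of the 13 genes of both lists that rose, 11 had an entry, and 3 of those (ASNS, AARS1 and MARS1) held the motif on either strand in at least 1 listed promoter. It occurs in 3.62% of all promoters in the table, again counted per promoter, and ASNS held it in 1 of 2 listed promoters. In the other 8 genes these letters are not in the window, which says nothing of binding elsewhere.

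Of 10 amino acid transporters 2 rose and 2 fell, and none passed without high dose replicate 1, high dose replicate 2 or low dose replicate 2. SLC43A1, a carrier of large neutral amino acids, had 6.31 and 6.84 CPM at the high dose against 3.37 to 5.11 CPM at the lower doses (0.64 ± 0.16, adjusted p = 0.0409), and SLC1A4, a carrier of alanine, serine and cysteine, rose by 0.27 ± 0.06 (adjusted p = 0.0269). SLC38A2, the glutamine and alanine carrier, fell by 0.22 on the log2 scale (adjusted p = 0.0241) beside SLC7A11, and stood at -0.09 (adjusted p = 0.27) after removal of the GC and length trends. Of 16 ER chaperone and unfolded protein response genes, SDF2L1 rose (0.38 ± 0.09, adjusted p = 0.0376) and SEL1L fell (-0.33 ± 0.06, adjusted p = 0.0125). Neither passed once those trends were removed, nor without high dose replicate 1, high dose replicate 2 or low dose replicate 2, and none of 17 heat shock chaperone genes was called.

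SQSTM1 encodes p62, which carries ubiquitinated cargo into autophagosomes, and NEU1 encodes the lysosomal sialidase. SQSTM1 had 1249 and 1341 CPM at the high dose, against 842 and 910 CPM at the medium and 894 and 851 CPM at the low dose (0.57 ± 0.06, adjusted p = 0.00247). NEU1 had 31.1 and 28.4 CPM at the high dose, against 17.1 and 18.0 CPM at the medium and 17.3 and 17.8 CPM at the low dose (0.76 ± 0.07, adjusted p = 0.00122). In both genes the 4 lower dose libraries were close together and below the high dose. Of 18 autophagy and lysosome genes tested, 2 rose, SQSTM1 among them, and none fell, while 1.61% and 4.28% of all genes tested did. The list, which does not hold NEU1, had a median of 0.12. The number that rose was 1 without medium dose replicate 2 or low dose replicate 2, and 4 without low dose replicate 1. It was also lower without either high dose library, which leaves 1 library at that dose. The list median was 0.15 without high dose replicate 1 and 0.14 without high dose replicate 2. Among 22 NRF2 targets 3 rose and 1 fell, with a median of 0.09, and 1 rose without high dose replicate 2. HMOX1, the heme oxygenase, had 236 and 249 CPM at the high dose against 170 to 190 CPM at the lower doses (0.46 ± 0.06, adjusted p = 0.00336). The ferritin chain genes FTH1 (0.36 ± 0.06, adjusted p = 0.0119) and FTL (0.33 ± 0.07, adjusted p = 0.0214) rose too, though they have many processed pseudogenes that can share reads, and FTL missed the threshold after removal of the GC and length trends (adjusted p = 0.0713). GCLC and GCLM, the subunit genes of the enzyme that begins glutathione synthesis, stood at -0.04 and 0.04, neither of them called.

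Of 25 genes of cholesterol synthesis and uptake, 6 rose and 1 fell, with a median of 0.10. TM7SF2, a sterol reductase, had 9.20 and 10.1 CPM at the high dose against 6.30 to 6.98 CPM at the lower doses (0.53 ± 0.10, adjusted p = 0.014). FDPS, the farnesyl diphosphate synthase, rose by 0.35 ± 0.06 (adjusted p = 0.0119), and FDFT1, the squalene synthase, by 0.27 ± 0.06 (adjusted p = 0.0203). STARD4, a sterol carrier, fell by 0.27 on the log2 scale (adjusted p = 0.0402). The number that rose was 1 or 0 when high dose replicate 1 or 2 was left out, and 11 when low dose replicate 1 was. None of 13 fatty acid synthesis genes or 8 LXR targets was called. Among 12 PPAR and fatty acid oxidation genes PLIN2, a lipid droplet coat protein, rose by 0.41 ± 0.08 (adjusted p = 0.0166), as did CPT1A (0.23, adjusted p = 0.0323) and ACADVL (0.22, adjusted p = 0.0458), the last of which was at 0.10 (adjusted p = 0.17) after removal of the GC and length trends. None of the 3 passed without high dose replicate 1, medium dose replicate 2 or low dose replicate 2, and 1 did without high dose replicate 2.

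Cytosolic ribosomal protein genes lay above 0 in all 33 cases, against 8444 of all 16197 genes tested. Their median was 0.19, with a range of 0.10 to 0.38, yet only 4 were called, among them RPL10, RPL23 and RPL27. They are short genes with many pseudogene copies, and their list level was 0.18 and 0.24 in the high dose libraries, against -0.09 to 0.13 at the lower doses, where low dose replicate 1 was highest. DESeq2 called 23 of them, and 21 passed without low dose replicate 1, but 0 without high dose replicate 1 or 2, medium dose replicate 2 or low dose replicate 2. All 13 mitochondrially encoded mRNAs had a positive log2 fold change, with a median of 0.38, and none was called. Their list level was 0.73 in high dose replicate 1 and -0.06 in high dose replicate 2, and without high dose replicate 1 the median was -0.06.

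**Figure D4:**
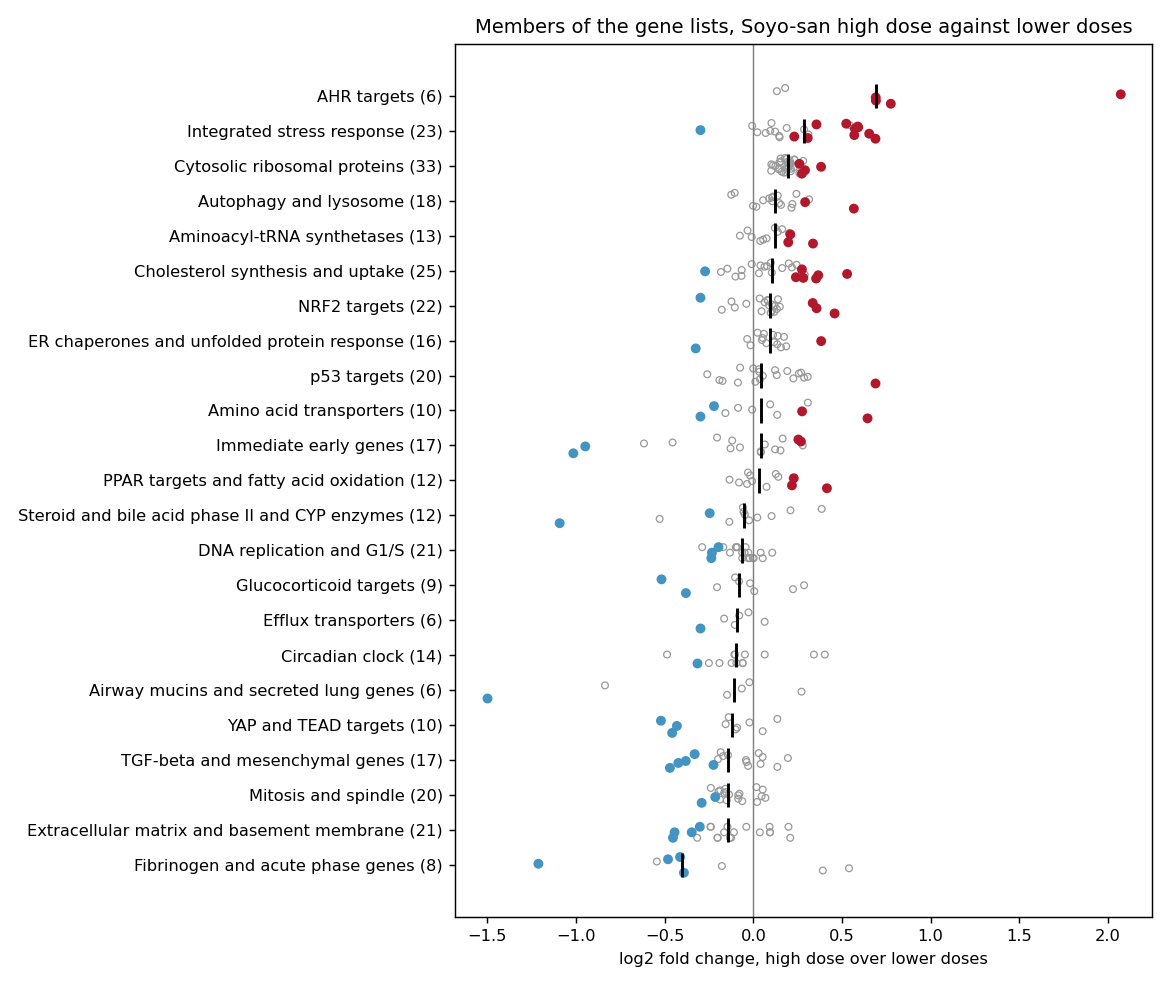
Log2 fold change of high over lower doses for each tested member of the gene lists with at least 1 called member, with the number tested in parentheses. Filled points passed an adjusted p of 0.05 (red higher, blue lower), open points did not, and black bars are medians, from -0.40 for the fibrinogen and acute phase list to 0.69 for AHR targets.

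Immediate early genes did not move as a group. NR4A1 (chromosome 12, 52022832 to 52059507, plus strand), an orphan nuclear receptor, had 18.1 and 20.2 CPM at the high dose, against 33.2 and 32.6 CPM at the medium and 46.5 and 43.1 CPM at the low dose. NR4A3, its paralog, had 3.94 and 3.79 CPM at the high dose, against 7.17 and 6.32 CPM at the medium and 7.88 and 8.60 CPM at the low dose. Neither gene overlapped between high and lower doses, with changes of -1.02 ± 0.14 (adjusted p = 0.0056) and -0.95 ± 0.14 (adjusted p = 0.00707), and in both the medium dose lay below the low dose, by differences that did not pass (-0.44, adjusted p = 0.248, and -0.29, adjusted p = 0.65). NR4A2, the remaining member of the family, was at -0.62 (adjusted p = 0.06), with 3.09 and 2.97 CPM at the high dose against 3.85 to 5.67 CPM at the lower doses. FOS stood at -0.46 (adjusted p = 0.24) and EGR1 at 0.04 (adjusted p = 0.94). IER3 and JUND rose slightly, by 0.25 (adjusted p = 0.0471) and 0.27 (adjusted p = 0.0484), and of 17 tested members 2 rose and 2 fell. With the GC and length trends removed, none rose and 4 fell.

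PTGS2, the inducible cyclooxygenase, had 16.3 and 15.6 CPM at the high dose, against 26.1 and 23.4 CPM at the medium and 28.9 and 26.0 CPM at the low dose (-0.71 ± 0.09, adjusted p = 0.00336). The membrane mucin gene MUC16 had 0.843 and 0.867 CPM at the high dose, against 2.23 and 2.32 CPM at the medium and 2.78 and 2.44 CPM at the low dose (-1.50 ± 0.22, adjusted p = 0.00608). In both the groups were separate. Of 6 tested airway mucin and secreted genes MUC16 alone was called, and the gel-forming mucin MUC5AC stood at -0.15 ± 0.13 (adjusted p = 0.55).

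Fibrinogen is a plasma glycoprotein that A549 cells also transcribe, and 4 of 8 tested fibrinogen and acute phase genes fell while none rose, with a list median of -0.40. FGB, the beta chain, had 174 and 164 CPM at the high dose, against 234 and 199 CPM at the medium and 250 and 264 CPM at the low dose (-0.48 ± 0.10, adjusted p = 0.018). FGG (-0.41 ± 0.07, adjusted p = 0.0112) and FGA (-0.39 ± 0.06, adjusted p = 0.0079) encode the other 2 chains, and all 3 were separate between groups. SERPINA3, a protease inhibitor, fell by 1.21 on the log2 scale (adjusted p = 0.0209). Complement C3 was at -0.18 (adjusted p = 0.19) and LCN2 at 0.39 (adjusted p = 0.43). The number that fell was 0 without high dose replicate 1, when the median was -0.41, 2 without low dose replicate 2 and 4 after removal of the GC and length trends.

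Of 10 genes of the YAP and TEAD list, which the Hippo pathway controls, 3 fell, against 4.28% of all genes tested. TEAD1, the DNA-binding partner of YAP, had 213 and 215 CPM at the high dose, against 318 and 324 CPM at the medium and 277 and 308 CPM at the low dose (-0.52 ± 0.07, adjusted p = 0.00359). CRIM1, a membrane protein that binds growth factors, had 323 and 333 CPM at the high dose against 441 to 455 CPM at the lower doses (-0.46 ± 0.05, adjusted p = 0.00286). LATS2, the kinase that restrains YAP, fell by 0.43 on the log2 scale (adjusted p = 0.00604). VGLL3, a TEAD cofactor outside the list, had 12.2 and 10.8 CPM at the high dose against 17.9 to 19.9 CPM at the lower doses (-0.73 ± 0.08, adjusted p = 0.00286). None of these 4 overlapped between groups, and the list median was -0.12.

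Of 17 TGF-beta and mesenchymal genes 5 fell, against 4.28% of all genes tested, and none rose, with a median of -0.14. The number that fell was 2 without high dose replicate 1, high dose replicate 2 or medium dose replicate 2, and 1 without low dose replicate 2 or in the fit of 54 libraries. SKIL, a feedback inhibitor of SMAD signalling, had 70.2 and 70.0 CPM at the high dose against 92.7 to 105 CPM at the lower doses (-0.47 ± 0.06, adjusted p = 0.00449). FN1, which encodes fibronectin, had 787 and 864 CPM at the high dose against 1016 to 1177 CPM at the lower doses (-0.38 ± 0.07, adjusted p = 0.0155), and was at -0.21 (adjusted p = 0.0996) after removal of the GC and length trends. LTBP2, a matrix protein, fell by 0.33 on the log2 scale (adjusted p = 0.0206). Of 21 extracellular matrix and basement membrane genes 4 fell, among them COL4A1 (-0.45 ± 0.08, adjusted p = 0.00987), COL5A1 (-0.35 ± 0.06, adjusted p = 0.0131) and SPARC (-0.30 ± 0.07, adjusted p = 0.0241), and the list median was -0.15. Without high dose replicate 1 none of the matrix genes passed and their median was -0.04, and the number that fell was 1 without low dose replicate 2, 2 without either medium dose library and 7 without low dose replicate 1.

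In the mitosis and replication lists few genes were called, each of them lower, and the calls rested on single libraries. Outside these lists CDC25B rose (0.26, adjusted p = 0.0154) and ANLN fell (-0.35, adjusted p = 0.00707), both named after their values were seen. The mitosis count was 0 when any library but low dose replicate 1 was left out, and the replication count was 0 without high dose replicate 1, high dose replicate 2, medium dose replicate 2 or low dose replicate 2. Over all genes tested 4.28% fell. Of 20 mitosis genes CENPF (-0.29, adjusted p = 0.0333) and KIF23 (-0.21, adjusted p = 0.0374) fell, and the median was -0.14. Of 21 replication genes RRM2, a ribonucleotide reductase subunit (-0.24, adjusted p = 0.0206), MCM10 (-0.23, adjusted p = 0.0459) and MCM6 (-0.20, adjusted p = 0.0482) fell, with a median of -0.06. Of these 5 genes only RRM2 passed after removal of the GC and length trends (adjusted p = 0.0101). Single members fell in further lists: KLF9 and SGK1 of 9 glucocorticoid targets (-0.52 and -0.38), the clock gene PER2 (-0.32), the efflux pump gene ABCC4 (-0.30), the vitamin D hydroxylase gene CYP24A1 (-0.25) and the glucuronosyltransferase gene UGT1A6 (-1.09), which shares exons with the other UGT1A genes. None of these genes passed without low dose replicate 2. CYP24A1 and UGT1A6 also missed the threshold with the replicate number as a block. GDF15 was the sole call among 20 p53 targets. No member was called among glycolysis, hypoxia, NF-kB, interferon, epithelial, proteasome, apoptosis, estrogen receptor or metallothionein genes.

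Several of the largest called changes belonged to genes that share sequence with a copy or a readthrough transcript, and their levels are uncertain. SLX1B, whose copy is SLX1A, had 29.2 and 32.8 CPM at the high dose against 10.8 to 15.7 CPM at the lower doses (1.20 ± 0.13). FAM156B, whose copy is FAM156A, had 13.9 and 10.9 CPM at the high dose against 3.63 to 8.52 CPM at the lower doses, and the pseudogene RPL18AP3 had 29.2 and 15.9 CPM against 12.1 to 14.8 CPM. Among genes that fell the same applies to the pseudogene SMG1P1, the readthrough gene CFAP298-TCP10L and ZBED6, which lies inside ZC3H11A. Other genes among the 12 highest and 12 lowest were UAP1L1 (0.76 ± 0.08), the antisense transcript CERS6-AS1 (0.91 ± 0.19), the helix-loop-helix inhibitor gene ID4 (-0.73 ± 0.12), the m6A methylation cofactor gene RBM15 (-0.67 ± 0.08), KLHL11 (-0.71 ± 0.15), NBEAL1 (-0.77 ± 0.15) and CCDC144A (-0.94 ± 0.14).

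Soyo-san was then set against Menthae Herba by testing the difference between the 2 extracts in their high minus lower dose effects, over 15 libraries. The difference passed in 2598 of 17232 genes (15.1%), 1382 higher (8.02%) and 1216 lower (7.06%) in Soyo-san, and in 1679 without Soyo-san high dose replicate 1. Between its own doses Menthae Herba had 1999 genes up (11.6%) and 2240 down (13%), from 9 libraries. The 955 genes of Soyo-san came from 6 libraries in another fit, so these counts do not compare the sizes of the responses. A gene that marks libraries of this series apart, ENSG00000282955, was at 17.6 to 36.6 CPM in the Soyo-san libraries and 0 to 3.05 CPM in those of Menthae Herba, here without TMM factors. It also fell within Soyo-san, with 18.5 and 21.6 TMM-scaled CPM at the high dose against 26.5 to 37.1 at the lower doses (-0.60 ± 0.12, adjusted p = 0.0197). Each effect was taken within its own extract, and the part of this gap in the differences was not tested.

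The stress response was smaller in Soyo-san. Among the 23 tested genes of the list, 16 had a lower effect in Soyo-san than in Menthae Herba and 2 a higher one, and the list median was 0.29 in Soyo-san against 0.94 in Menthae Herba. TRIB3 averaged 198 ± 16.4 CPM at the high dose of Menthae Herba, against 72.3 ± 4.37 CPM at its medium and 69.0 ± 2.65 CPM at its low dose (SD, n = 3 each), and the effect was lower in Soyo-san by a log2 difference of -0.91 ± 0.08 (adjusted p = 3.26e-06). The differences were -1.74 ± 0.24 for CHAC1 (adjusted p = 0.000196), -1.39 ± 0.14 for NIBAN1 (adjusted p = 1.13e-05) and -1.37 ± 0.18 for STC2 (adjusted p = 0.000138). For GDF15 the difference of -0.24 ± 0.14 did not pass (adjusted p = 0.29), nor did that of HMOX1 at -0.08 ± 0.07 (adjusted p = 0.52). AHR targets split: the effect was higher in Soyo-san for CYP1A1 (0.92 ± 0.23, adjusted p = 0.0115) and CYP1B1 (0.37 ± 0.09, adjusted p = 0.00805) and lower for TIPARP (-0.37 ± 0.07, adjusted p = 0.00165). At the medium dose Menthae Herba already had 7.20 ± 0.929 CPM of CYP1A1 and 217 ± 10.1 CPM of CYP1B1.

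NEU1 and some sterol genes went opposite ways in the 2 extracts. NEU1 rose in Soyo-san, whereas in Menthae Herba it fell by 0.35 on the log2 scale (adjusted p = 0.000161), with 12.4 ± 0.207 CPM at the high dose, against 14.1 ± 0.556 CPM at the medium and 17.6 ± 0.867 CPM at the low dose. The difference was 1.13 ± 0.08 (adjusted p = 1.11e-06). FDFT1 (0.82 ± 0.07, adjusted p = 1.53e-06) and FDPS (0.53 ± 0.08, adjusted p = 0.000204) rose in Soyo-san and fell in Menthae Herba, with these differences. SQSTM1 rose in Soyo-san and was at 0.07 ± 0.04 (adjusted p = 0.24) in Menthae Herba, a difference of 0.51 ± 0.07 (adjusted p = 0.000118). MUC5AC fell by 2.11 on the log2 scale in Menthae Herba, and the difference of 1.97 ± 0.22 (adjusted p = 3.01e-05) was the only one of the 4 named for the largest differences in favour of Soyo-san without a copy or parent gene. EIF3CL (3.76), FTH1P10 (1.82) and FAM156B (1.68) are such genes: EIF3CL, a copy of EIF3C, had 34.9 and 5.57 CPM in the Soyo-san high dose replicates. FN1 fell less in Soyo-san (0.94 ± 0.16, adjusted p = 0.000795), and PWAR5, a noncoding transcript, fell in Soyo-san and rose in Menthae Herba (-1.38 ± 0.19, adjusted p = 0.000156).

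**Figure D5:**
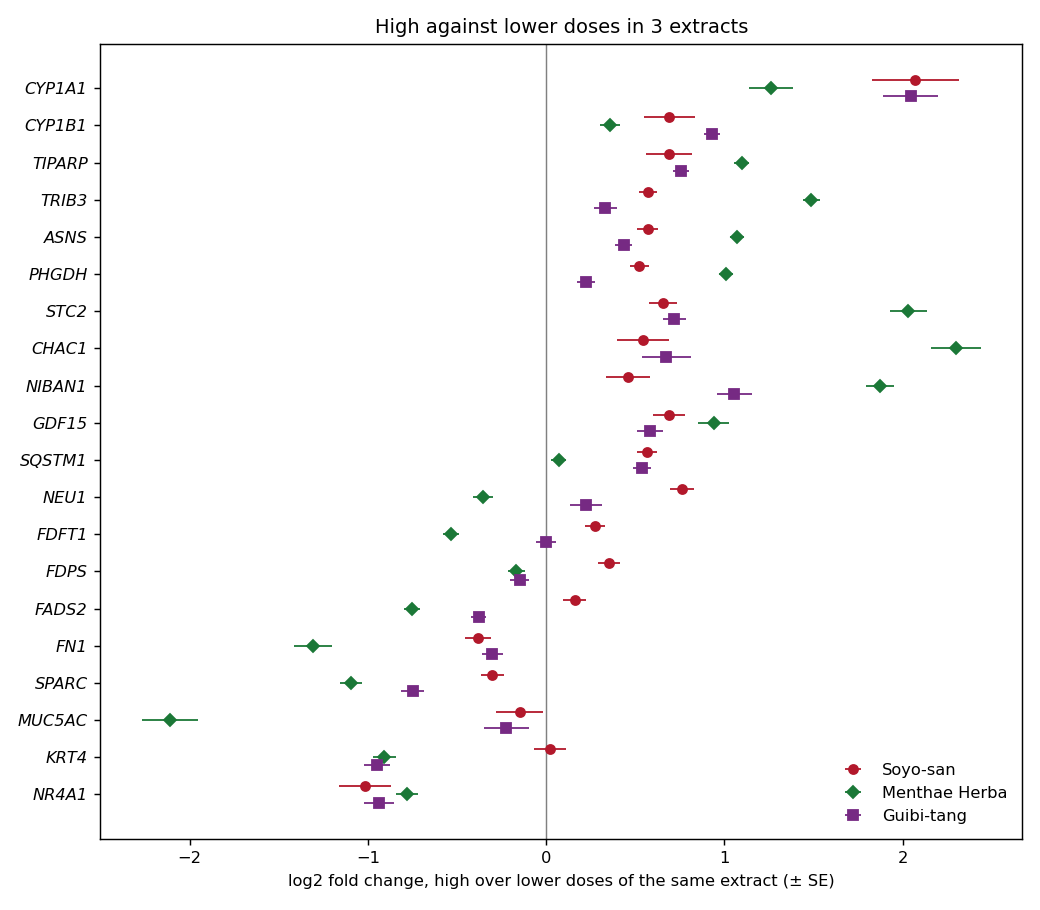
Log2 fold change of high over lower doses of the same extract, with bars of 1 SE, for 20 genes in Soyo-san (fit of 6 libraries), Menthae Herba and Guibi-tang (fits of 15 libraries with Soyo-san). TRIB3, STC2, CHAC1 and NIBAN1 lie farther to the right in Menthae Herba, NEU1 lies at 0.76 in Soyo-san against -0.35 in Menthae Herba, and KRT4 lies near 0 in Soyo-san and below -0.9 in the other extracts.

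Against Guibi-tang, 2 of 17218 genes differed (0.0116%), KRT4 and FADS2, both higher in Soyo-san. DESeq2 called 92, and 1665 had an unadjusted p under 0.05. With the replicate number as a block 524 genes differed, 190 higher and 334 lower in Soyo-san. Guibi-tang replicate 3 stood apart at each dose, with 29.3 to 32.9 CPM of ENSG00000282955 against 0 to 2.03 CPM in replicates 1 and 2 (without TMM factors), and without its 3 libraries 196 genes differed, KRT4 and FADS2 among them. The count was 15 without Soyo-san high dose replicate 2. KRT4, a keratin of stratified epithelia, had 47.2 and 49.2 CPM at the high dose of Soyo-san, against 43.7 and 43.9 CPM at its medium and 55.1 and 47.7 CPM at its low dose. In Guibi-tang it averaged 21.4 ± 2.17 CPM at the high dose, against 38.1 ± 2.26 CPM at the medium and 44.9 ± 2.58 CPM at the low dose (SD, n = 3 each). The Soyo-san groups overlapped while Guibi-tang fell by 0.95 on the log2 scale, and the difference was 0.97 ± 0.11 (adjusted p = 0.00654). FADS2, the delta-6 fatty acid desaturase, was at 0.16 ± 0.06 (adjusted p = 0.16) in Soyo-san and fell by 0.38 on the log2 scale in Guibi-tang, a difference of 0.54 ± 0.07 (adjusted p = 0.00839). Both genes also fell in Menthae Herba, by 0.91 and 0.75 on the log2 scale.

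For the other genes the difference between the effects in Soyo-san and Guibi-tang did not pass in the fit without a replicate block. Values with that block are not given here for single genes. CYP1A1 differed by 0.13 ± 0.26 (adjusted p = 0.92), TRIB3 by 0.24 ± 0.11 (adjusted p = 0.49), SQSTM1 by 0.03 ± 0.08 (adjusted p = 0.94) and NR4A1 by -0.07 ± 0.13 (adjusted p = 0.91). NEU1 was at 0.22 ± 0.09 in Guibi-tang and differed by 0.54 ± 0.14 (adjusted p = 0.29). In Guibi-tang 172 genes rose (0.999%) and 337 fell (1.96%) between its doses, including 4 of 6 AHR targets and 10 of 23 genes of the stress response that rose. A p above the threshold does not show that both formulas act alike.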

How the data were processed

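RNA from A549 cells was sequenced as a directional mRNA library with paired-end reads, per the labels' protocols. The authors deposited RSEM expected counts for 60675 genes and 60 libraries. FastQC 0.11.9, Trim Galore 0.6.5, STAR 2.7.3a, RSEM 1.3.3 and a GRCh38 build are named in the submitters' processing notes. For the annotation release and the strand setting, no value is given in the sources used here. Expected counts (9.95% of values had decimals) were rounded to whole numbers. Gene names came from a name table (56558 IDs) and GENCODE 29 (497 more), which also gave gene coordinates, GC content and transcript length.

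Groups were taken from titles. Genes were filtered with filterByExpr and tested with edgeR 4.0.16 (R 4.3.3; TMM factors, quasi-likelihood F-test, two-sided, Benjamini-Hochberg over all genes tested, threshold 0.05). The comparison used 6 libraries and 2 group means, with 4 residual degrees of freedom. Doses were compared in a fit with a mean per dose, and extracts in fits of 15 libraries with a mean per extract and dose. The SE is the absolute log2 fold change over the square root of F. The procedure was tested on simulated data. Alternatives were other size factors, no filter, DESeq2 1.42.0, a replicate block, a fit of 54 libraries, a 2-fold minimum, each library left out, and 2 settings chosen after seeing the data: GC and length offsets per library, and leaving out Guibi-tang replicate 3.

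The members, the 36 gene lists and the tests were chosen with earlier results of these data known. The genes named are the 12 highest and 12 lowest called log2 fold changes (mean log2 CPM of at least 2, no overlap between groups, a gene symbol), the 3 called members with the smallest adjusted p in each list, and the 4 largest differences each way between extracts or between medium and low dose. Further called members were named, after their values were seen, to complete a list's count. Promoters came from RefSeq GRCh38.p14.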

Additional observations from a re-analysis of the deposited data

Results flagged for a closer look

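Of 75 named genes checked among the 4 lower dose libraries, 4 had a library whose gap to its nearest neighbour exceeded Dixon's 95% limit for 4 samples, and chance flags about 1 in 20 groups. ZBED6 was at 11.0 CPM and CCDC144A at 9.45 CPM in low dose replicate 1, below the other lower dose libraries. COL4A1 was at 62.0 CPM in medium dose replicate 1 and SPARC at 26.5 CPM in medium dose replicate 2, each below the others.

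The test of the difference between extracts marked 2598 genes between Soyo-san and Menthae Herba. The largest differences, Soyo-san minus Menthae Herba on the log2 scale, were 3.76 for EIF3CL, 1.97 for MUC5AC, 1.82 for FTH1P10 and 1.68 for FAM156B, and -1.74 for CHAC1, -1.39 for NIBAN1, -1.38 for PWAR5 and -1.37 for STC2. Between Soyo-san and Guibi-tang it marked 2 genes, KRT4 with 0.974 and FADS2 with 0.542.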

How the results depend on the processing

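The 955 genes of high over lower doses became 1994 without the filter, 508 in the fit of 54 libraries, 41 at 2-fold or more and 130 to 1785 with 1 library left out. High over medium (1336) became 2380, 338 and, with GC and length offsets, 488, and 1 to 1151 with 1 library left out. High over low (328) became 1151 without the filter, 183 with 54 libraries and 7 to 555. Medium over low (4) became 130 without the filter, 19 with DESeq2, 2 with 54 libraries and 0 to 13. Soyo-san minus Menthae Herba (2598) became 1331 with 54 libraries and 1679 to 2981. Soyo-san minus Guibi-tang (2) became 381 without the filter, 92 with DESeq2, 7 with 54 libraries, 15 with offsets, 196 without Guibi-tang replicate 3 at every dose and 1 to 15. The cause was not tested. None of the 75 genes named by the rule for high over lower doses changed direction under these settings, but they were chosen as called in the same libraries. Of these 75 genes, 32 lost their call in the fit of 54 libraries, 19 with GC and length offsets and 16 with the replicate number as a block. Other genes named in the text were not rerun one by one.

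Same-numbered Soyo-san libraries did not deviate together (correlations of 0.00631, -0.0127 and -0.000284 between doses), and 1 of the 9 Guibi-tang correlations (0.0482 to 0.502) was under 0.1, so the numbers were not taken as pairs. With the replicate number as a block, 673 genes passed for high over lower doses, 2680 against Menthae Herba and 524 against Guibi-tang, 190 of them higher and 334 lower in Soyo-san.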
